A study of Mus musculus with 22 samples.

Results

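Kidney loop of Henle cells were selected on their measured transcripts from single-cell RNA profiles of pooled mouse organs. Each droplet carries its own barcode, and unique molecular identifiers (UMIs) count the transcripts captured in it. A member was a barcode with at least 200 detected genes, at most 60% mitochondrial UMIs, at least 1 UMI of at least 2 of Umod, Slc12a1, Cldn16, Ppp1r1a and Egf (with Umod or Slc12a1 among them), and no UMI of Ptprc, Slc12a3, Aqp2 or Atp6v1g3. This rule gave 1588 members among 176676 tissue barcodes, of which 151494 passed the gene and mitochondrial limits, and among 179929 barcodes in the whole series. The same genes found 0 members among 2887 passing barcodes of the blood libraries. Because measured UMIs chose the members, levels of the rule's genes in them are given as a description only.

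All mice carried Prom1-CreERT2, a tamoxifen-inducible recombinase under the promoter of the epithelial stem cell gene Prom1, and Rosa26ZSG, a green fluorescent lineage reporter. They differed in Nalcn, the gene of a sodium leak channel. The wild-type (wt) group had no modified Nalcn allele named in its labels and comprised 5 tissue libraries, replicates 1 to 3 from males of 571, 571 and 608 days and replicates 4 and 5 from females of 611 and 654 days. The heterozygous (het) group had 2 libraries, both from males of 551 days. The null group had 2 libraries, replicate 2 from a male of 552 days and replicate 3 from a female of 611 days. The genotype of null replicate 3 comes from its strain entry alone, since its title names none. Kidney, liver, lung and stomach were pooled in each library with epididymis in males or uterus in females, so sex and the pooled genital organ cannot be told apart. Another 2 tissue libraries had titles and strain entries that named different genotypes; they entered no comparison of groups and are called unassigned 1 (male, 610 days) and unassigned 2 (female, 647 days). They do enter the mean levels over 10 or 11 libraries. No label ties a library to an animal. Thus n is a number of libraries, and p-values measure the spread between libraries, which may be technical. Recombination was induced by tamoxifen, at an age that the labels of a sample do not give, and acts only in cells that have expressed Prom1, so a member of a null library need not carry a deleted Nalcn.

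The loop of Henle leads from the proximal tubule into the medulla and back to the distal tubule. Its thick ascending limb takes up sodium, potassium and chloride through the cotransporter encoded by Slc12a1 and returns potassium to the lumen through the channel encoded by Kcnj1. Bsnd encodes barttin, a subunit needed for chloride to leave toward the blood. It takes up no water, which dilutes the urine and feeds the concentrating gradient of the medulla, and the voltage it builds drives calcium and magnesium between the cells through pores formed by claudins 16 and 19. Umod encodes uromodulin, the most abundant protein of normal urine, and Egf encodes a growth factor precursor released into urine.

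Umod and Slc12a1, of which the rule required at least 1, and the neighboring pair Cldn16 and Tmem207 carry the description that follows, so their promoters are shown (RefSeq, build GRCm38.p6, 250 bases before to 50 bases after the transcription start, read on the gene's strand). Capitals mark AAGGTCA, a half-site of orphan nuclear receptors such as the estrogen-related receptors, on either strand. Tmem207 is placed beside Cldn16 because it led the genes outside the rule. These promoters lie at chr7:119479213-119479512 (minus strand), chr2:125152350-125152649 (plus strand), chr16:26462885-26463184 (plus strand) and chr16:26526722-26527021 (minus strand), in the order printed.
Umod: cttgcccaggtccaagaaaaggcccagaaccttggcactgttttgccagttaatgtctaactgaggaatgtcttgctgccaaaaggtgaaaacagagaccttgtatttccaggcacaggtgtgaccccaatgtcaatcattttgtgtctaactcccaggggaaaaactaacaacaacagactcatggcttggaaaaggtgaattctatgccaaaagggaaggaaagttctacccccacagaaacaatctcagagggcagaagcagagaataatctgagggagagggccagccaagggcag
Slc12a1: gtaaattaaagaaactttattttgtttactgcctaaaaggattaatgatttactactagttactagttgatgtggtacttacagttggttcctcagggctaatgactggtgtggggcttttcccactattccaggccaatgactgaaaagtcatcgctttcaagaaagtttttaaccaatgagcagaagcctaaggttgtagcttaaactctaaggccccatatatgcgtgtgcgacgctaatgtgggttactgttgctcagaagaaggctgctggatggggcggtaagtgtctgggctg
Cldn16: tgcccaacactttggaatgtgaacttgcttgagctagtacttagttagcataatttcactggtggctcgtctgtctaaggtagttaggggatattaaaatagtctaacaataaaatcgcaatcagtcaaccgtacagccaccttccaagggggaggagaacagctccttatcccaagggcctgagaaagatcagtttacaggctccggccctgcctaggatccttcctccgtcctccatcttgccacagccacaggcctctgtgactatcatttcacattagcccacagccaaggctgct
Tmem207: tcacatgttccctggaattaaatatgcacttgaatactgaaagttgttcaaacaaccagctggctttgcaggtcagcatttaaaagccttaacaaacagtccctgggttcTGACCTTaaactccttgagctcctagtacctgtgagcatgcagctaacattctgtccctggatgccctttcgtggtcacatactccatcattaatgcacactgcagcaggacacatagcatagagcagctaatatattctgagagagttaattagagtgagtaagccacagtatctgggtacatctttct

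The Tmem207 promoter held AAGGTCA on the opposite strand, printed as TGACCTT and beginning 140 bases before the start. These letters did not stand in the windows of Umod, Slc12a1 and Cldn16. Over all 32851 RefSeq promoters, 4.72% held AAGGTCA on either strand. Of 29 genes looked up, namely the 10 loop markers and the leading genes described below, 20 had an entry, with 24 promoters, of which 2 held AAGGTCA. These matches describe letters in a window and were not tested as binding sites.

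The annotation (GENCODE vM21, GRCm38) places Umod at chr7:119462711-119479282, Slc12a1 at chr2:125152505-125230002, Egf at chr3:129677565-129755316 and Ppp1r1a at chr15:103530279-103538003. Cldn16 lies at chr16:26463135-26482765 and Tmem207 at chr16:26503656-26526769, with 20890 bases between them and opposite strands, so that their 3′ ends face each other. Each count is of reads near a transcript's 3′ end over the whole gene.

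The deposited UMI counts gave members a median of 2088.5 UMIs and 832.5 genes, and medians per library ran from 1117.5 UMIs in null replicate 2 to 4778 in het replicate 1. Their median mitochondrial share was 38.3%. In each library the barcodes with the highest doublet scores were marked, up to a share fixed beforehand by its number of barcodes. That share ran from 1.48% of passing barcodes in wt replicate 5 to 22.3% in wt replicate 4. Among members 284 (17.9%) were marked and were kept in the main results. Since the share was fixed over all passing barcodes, this count is no result about members. The barcode sequences of 65 members (4.09%) also occurred in another tissue library, but no sequence was a member in both. Null replicate 3, labeled female with uterus, held 58469 Xist UMIs but also 1416 UMIs of Y-linked genes and epididymal marker genes at 17884 CPM (the gene's UMIs scaled to a common total), whereas the female wt replicates 4 and 5 held those markers at 6.24 and 10.6 CPM. Of its 257 members, 156 had a UMI of Xist, 13 one of a Y-linked gene and 4 both. Gene counts over all members are also given without this library, and those over marker-rich members were not computed without it.

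Members fell along a wide range of marker content. Umod was found in 93.0% of members, Slc12a1 in 80.7%, Egf in 76.4%, Ppp1r1a (a protein phosphatase inhibitor) in 55.7% and Cldn16 in 16.4%. All 5 were found together in 220 members, and 565 members had exactly 2. The 5 genes summed to a median of 17 UMIs, and 378 members had only 2 such UMIs, the least the rule allows.

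The independent loop genes Cldn19, Kcnj1, Bsnd and Cldn10, which the rule did not use, followed this range. At least 2 of them were found in 0.265% of members with 2 marker UMIs, 1.95% with 3 to 4, 10.2% with 5 to 9, 14.7% with 10 to 29, 36.5% with 30 to 99 and 78.0% with 100 or more. Median total UMIs over the same bins were 1888, 1571, 1314, 1307.5, 2008.5 and 5929, so the 10 to 29 bin held more independent loop genes than the lowest bin at fewer total UMIs. At least 2 of 10 proximal tubule markers were found in 47.6%, 48.1%, 32.0%, 28.6%, 21.6% and 33.3% of the same bins. The lists differ in length, so these shares are not compared with each other. None of the 4 loop genes was found in 81.2%, 74.7%, 67.3%, 47.2%, 27.9% and 3.56% of the same bins.

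**Figure D1:**
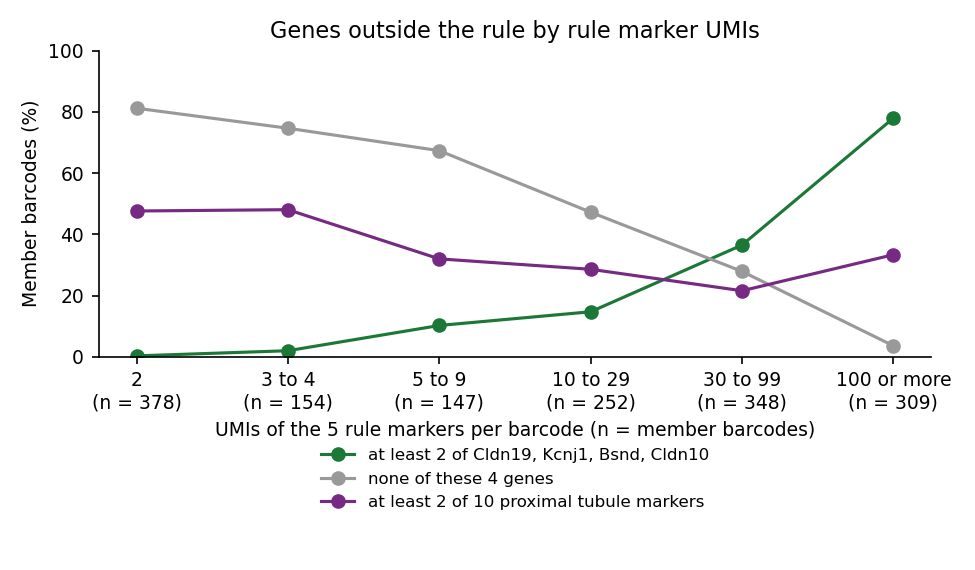
Share of members (vertical axis, %) with at least 2 independent loop genes, with none of them, and with at least 2 proximal tubule markers, by UMIs of the 5 rule markers (horizontal axis, bins with the number of members). The share with at least 2 independent loop genes climbs from 0.265% to 78.0% and the share with none drops from 81.2% to 3.56%.

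B cell barcodes of the same libraries served as a measure of free RNA, because B cells should hold no loop transcripts. Their gate left out barcodes with a UMI of Slc34a1, Lrp2 or Epcam, genes of kidney tubule or other epithelium. Their shares of loop transcripts can therefore be too low as a background. After thinning to 1000 UMIs, Umod was found in 2.77% of 5910 B cells and Slc12a1 in 1.49%, against 97.8% and 95.01% of members with 10 or more marker UMIs and 46.8% and 31.3% of members with fewer. Without thinning, the share of B cells with Umod differed between libraries, from 1.37% in unassigned 1 to 12.3% in wt replicate 3. A barcode from another cell with a few captured loop transcripts could meet the rule, so members were also described at a limit of 10 marker UMIs. This limit was set after the data had been seen. It kept 909 members, called marker-rich here, and left 679 marker-poor members, with 19 members at exactly 9 UMIs and 17 at exactly 10.

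The label of loop of Henle held for the marker-rich members as a set by their independent genes, but could not be checked in each barcode. None of the 4 independent genes was found in 47.2% of members with 10 to 29 marker UMIs and 27.9% with 30 to 99. For the marker-poor members the label held at most in part. Cldn19 was found in 14.4% of thinned marker-rich members, 1.65% of marker-poor members and 0.0355% of proximal tubule barcodes. Kcnj1 was found in 25.5%, 2.47% and 0.201%. Marker-poor members thus lay between proximal tubule barcodes and marker-rich members for both genes, and above the 0.102% of B cells with Kcnj1. Proximal tubule barcodes had to hold no UMI of Umod or Slc12a1, whereas members had to hold at least 1. A barcode of another cell with captured loop transcripts was thus moved from the former to the latter. The order is partly set by these gates and cannot decide what the marker-poor members are.

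Other cell types' markers were present beside the loop genes. At least 2 of 10 proximal tubule markers were found in 34.7% of members, from 6.06% to 69.8% across libraries, at least 2 of 4 globin genes in 21.2%, at least 2 of 5 stomach markers in 15.1%, at least 2 of 7 epididymis markers in 13.2%, at least 2 of 8 leukocyte markers in 11.7% and at least 2 of 4 endothelial markers in 11.2%. Distal convoluted (0.504%), principal (0.189%) and intercalated (0.0630%) markers were rare. The rule bars a gene of each, as it bars the leukocyte gene Ptprc, so selection enters the shares of these lists. In marker-rich members the shares were 27.5% for proximal tubule, 17.3% for globin, 10.5% for stomach, 12.5% for epididymis, 8.14% for leukocyte and 7.15% for endothelial markers.

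The edges of the rule were as follows. Just outside, 4673 barcodes had Umod or Slc12a1 alone, and 0.193% of these had at least 2 of the 4 independent loop genes, against 2.83% of the 565 members with exactly 2 rule markers. Another 1955 barcodes had enough rule markers but a UMI of a barred gene, and 18.1% of these had at least 2 independent loop genes. At the mitochondrial limit, 332 members lay between 50% and 60% and 228 barcodes between 60% and 70%, with at least 2 independent loop genes in 30.1% and 25.4%. The rule thus leaves out barcodes with several loop genes that also hold a transcript of a neighboring cell type or of a leukocyte, or that lie above the mitochondrial limit.

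The level of every gene below is in CPM, from UMIs summed over the marker-rich members of a library, as mean ± SD over the 10 libraries with at least 20 such members (n = 10). Comparison classes were drawn from the same libraries with markers of their own and no UMI of Umod or Slc12a1, namely 31453 proximal tubule, 299 distal or principal and 560 intercalated barcodes, with 11, 5 and 8 libraries holding at least 20. Since marker content chose these classes, no test is attached. UMIs near the 3′ end are not divided by length, so values are compared between classes and not between genes.

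Levels of the rule's own genes in marker-rich members are partly set by selecting on their UMIs. Umod stood at 15160, 12006, 15507 and 13148 CPM in wt replicates 1 to 4, 18063 and 15220 in het replicates 1 and 2, and 13638 and 13117 in null replicates 2 and 3. The groups overlapped. Slc12a1 ranged from 5432 to 6637 CPM around a median of 6227, and Egf from 4783 to 7238 around a median of 5779. Cldn16 ranged from 82.4 to 193 CPM and Ppp1r1a from 643 to 1297 CPM. Over all members Umod was 4788 to 7545 CPM across the 5 wt libraries, 13122 and 13126 in het, and 9859 and 8350 in null. It was at 17682 and 14142 CPM in unassigned 1 and 2. Selection on Umod shaped these levels too, so the gap between wt and the other libraries is no result about genotype.

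Salt transport genes come first among the groups outside the rule. Of 16 listed genes, 16 reached 10 CPM and 9 were above all 3 comparison classes, whereas 1158 of 7622 genes at 10 CPM were so over the whole table. Bsnd was at 45.7 ± 15.2 CPM against 0.261 in proximal tubule, 32.9 in distal or principal and 37.6 in intercalated barcodes. Its level ran from 22.0 to 63.8 CPM over libraries, so it stood far above proximal tubule in each.

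Kcnj1 was at 322 ± 57.7 CPM, against 444 in distal or principal and 1.41 in proximal tubule barcodes. Principal cells secrete potassium through the same channel. Atp1b1, the beta subunit of the sodium pump that powers the limb, was at 3372 ± 376 CPM, against 574 in proximal tubule. Slc9a3, the apical sodium-hydrogen exchanger, was at 107 ± 29.8 CPM, against 25.7 in proximal tubule and 0 in distal or principal barcodes. The kinase genes Wnk4 (182 ± 37.1 CPM) and Stk39 (64.5 ± 17.7 CPM), which act upstream of the cotransporter, were at 15.9 and 7.91 CPM in proximal tubule. Wnk1 was at 615 ± 131 CPM, below the 1749 CPM of distal or principal barcodes.

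Of the tight junction and divalent cation genes, Cldn19 was at 151 ± 31.4 CPM against 0.265 in proximal tubule, 0 in distal or principal and 0.189 in intercalated barcodes. Cldn10, which encodes a sodium pore in this limb, was at 432 ± 78.2 CPM against 128, 42.3 and 290. Casr, the calcium-sensing receptor that restrains calcium uptake, was at 55.3 ± 21.5 CPM against 0.0618, 8.02 and 0. Pth1r, the parathyroid hormone receptor, was at 214 ± 63.5 CPM and so near the 206 CPM of proximal tubule. Cldn3 and Cldn4 were at 6.69 ± 4.42 and 4.63 ± 10.4 CPM, against 183 and 341 in intercalated barcodes.

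Of 12 receptor and signaling genes, 5 reached 10 CPM and 3 of these, Ptger3, Gcgr and Erbb4, were above all 3 classes. Ptger3, a prostaglandin E2 receptor that opposes vasopressin, was at 175 ± 54.2 CPM against 1.78, 1.93 and 10.1 in the 3 classes. Gcgr, the glucagon receptor, was at 82.1 ± 28.1 CPM against 2.15, 11.8 and 11.2. Erbb4, a neuregulin receptor, was at 95.1 ± 26.6 CPM against 1.87, 8.33 and 1.19. Insr, the insulin receptor gene, was at 40.9 CPM, below the 59.6 and 60.1 CPM of distal or principal and intercalated barcodes. Avpr2, the vasopressin receptor, was at 5.74 ± 4.00 CPM, and 33.0 in distal or principal barcodes. Nos1 and Pappa2, which mark the macula densa at the end of the limb, were at 2.89 ± 4.41 and 2.15 ± 5.14 CPM with 0 in at least 1 library, so macula densa cells could not be told apart at this depth.

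Of 17 transcription factor genes, 12 reached 10 CPM and 8 were above all 3 classes. Irx1 (49.7 ± 15.4 CPM) and Irx2 (57.3 ± 14.6 CPM) were at 2.79 and 3.70 in proximal tubule and at 0.793 and 6.56 in distal or principal barcodes. Esrrb was at 25.9 ± 6.36 CPM against 0.732, 10.5 and 3.14. Tfap2b, needed for distal tubule development, was at 192 ± 46.8 CPM against 4.26, 105 and 16.2, and Pou3f3 at 151 ± 30.2 CPM against 16.4, 120 and 95.1. Hnf4a, a proximal tubule regulator, was at 9.74 ± 6.38 CPM against 105 in proximal tubule, and Foxi1, the intercalated cell regulator, at 0.165 ± 0.522 against 397 in intercalated barcodes.

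Mitochondrial and energy genes followed. Of 26 listed nuclear genes of the respiratory chain, the citrate cycle and energy transfer, 21 were above all 3 classes, with a median ratio of 1.72 to proximal tubule. Ckb, the cytosolic creatine kinase, was at 793 ± 158 CPM against 55.6, 155 and 54.8. Idh2 was at 433 ± 86.6 CPM against 147, 247 and 137, and Hk1, a hexokinase, at 106 ± 19.4 CPM against 13.0, 56.9 and 49.2. Acaa2, an enzyme of fatty acid oxidation, went the other way, with 129 ± 36.2 CPM against 248 in proximal tubule, as did the lactate dehydrogenase gene Ldha, with 85.8 ± 24.0 against 204.

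Secreted and defense products included Wfdc15b, a protease inhibitor family gene, at 2673 ± 466 CPM against 58.7, 296 and 152. Spp1 (osteopontin) was at 2949 ± 1900 CPM, with a range from 1684 to 8208 over libraries, and Defb1, an antimicrobial peptide gene, was at 233 ± 62.5 CPM against 13.9 in proximal tubule and 1700 in distal or principal barcodes. Lcn2 and Slpi, which mark injured or inflamed epithelium, were at 80.2 ± 95.1 and 86.5 ± 108 CPM in marker-rich and 544 and 530 in marker-poor members.

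Injury, immediate early and antigen presentation genes were low. Of 18 injury and stress genes at 10 CPM, 0 were above all 3 classes, and Krt18 (16.2 ± 10.9 CPM) and Sox9 (14.0 ± 19.5 CPM) were at 93.1 and 48.7 in proximal tubule. Fos was at 180 ± 110 CPM against 498 in proximal tubule, and Atf3 at 107 ± 94.6 against 249. The class I gene H2-K1 was at 388 ± 110 CPM against 682 in proximal tubule, and 0 of 7 antigen presentation genes were above all 3 classes. Of 16 fibrosis signal genes, 9 reached 10 CPM and only Lamb1 is named as an exception chosen after its values were seen, with 106 ± 33.4 CPM against 21.3, 65.1 and 10.9. It encodes a laminin of the basement membrane.

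Thin limb markers were sparse. Slc14a2, the urea transporter of the thin descending limb and inner medulla, was at 1.85 ± 5.84 CPM, and Epha7 at 1.45 ± 2.08. Aqp1, the water channel of proximal tubule and thin descending limb, was at 55.3 ± 37.5 CPM against 230 in proximal tubule and 68.5 in B cells. Of 8 thin limb genes, 4 reached 10 CPM and 0 were above all 3 classes. The rule requires thick limb genes, so absence of thin limb cells here says nothing of their number in the kidney.

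**Figure D2:**
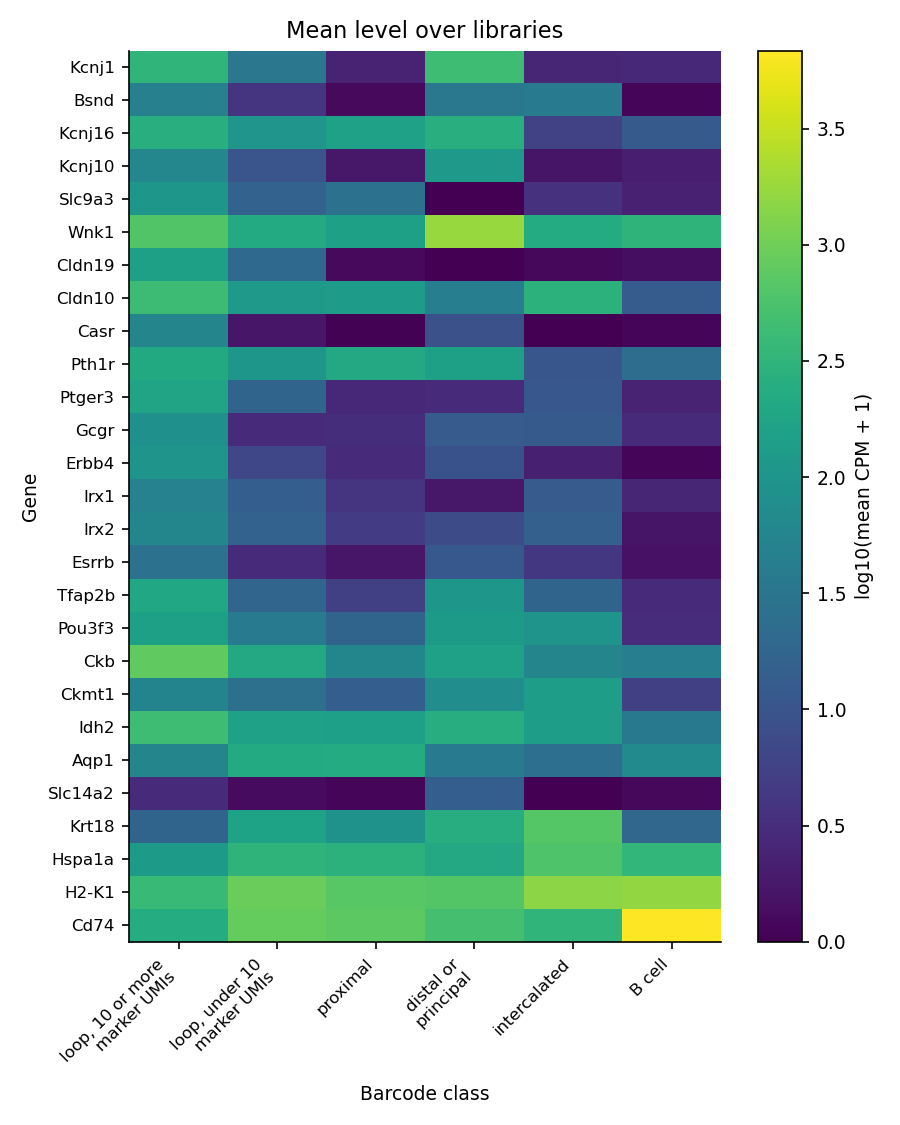
Mean level over libraries, as log10(mean CPM + 1) by color, of listed genes (vertical axis) in marker-rich and marker-poor members, 3 other kidney tubule classes and B cells (columns). Cldn19, Casr, Ptger3 and Erbb4 are brightest in the first column, and the antigen presentation gene Cd74 is brightest in B cells.

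A search of all genes for those most selective for members, at 50 CPM or more and outside the rule, was led by Tmem207, which encodes a membrane protein. Over all members Tmem207 stood at 67.8 ± 43.3 CPM (n = 11), with 0.0615 in proximal tubule and 0 in the other 2 classes, and in marker-rich members at 104 ± 43.4 CPM (n = 10). By library, marker-rich members held 93.5, 83.9, 82.4 and 36.7 CPM in wt replicates 1 to 4, 152 and 74.3 in het, and 73.5 and 174 in null. The groups overlapped. Its neighbor Cldn16 was at 121 ± 35.5 CPM in marker-rich members against 0.182, 1.14 and 0.977, but as a rule gene it was selected for, so its contrast with the classes says nothing of a pattern shared with Tmem207.

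Next in order among those reported were Cldn19, Nccrp1, Eprn (a long noncoding RNA), Pla1a (a phospholipase), Ighg3, Pcsk6 (a proprotein convertase), Ptger3, Slc5a1 (a sodium-glucose transporter), Ppp1r1b, Erbb4, Wfdc15b, Plau (urokinase), Gm47708, Egfl6, Gcgr, Rgs5, Gm17750 and Gpx6. Slc5a1 was at 189 ± 56.8 CPM in marker-rich members against 14.3 in proximal tubule, Nccrp1 at 98.98 ± 40.7 against 0.381, and Plau at 124 ± 41.9 against 14.2. Among genes at 50 CPM or more, 33 of 2308 were at least 2-fold above every other class in all members and 63 of 2071 in marker-rich members, and 16 of the leading 20 were shared by both orders. The marker-rich order held Shd, Dusp15, Lrrc31 and Casr in place of Ighg3, Rgs5, Gm17750 and Gpx6.

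A pair of these leading genes rested on few barcodes. Ighg3, an antibody heavy chain gene of plasma cells, had 745 UMIs in wt replicate 3, all from 1 barcode. Rgs5, a pericyte gene, had 304 UMIs over 8 barcodes in wt replicate 1, of which 185 came from 1, and 82 over 3 barcodes in wt replicate 5, of which 80 came from 1. In the het and null libraries Rgs5 had 1 to 5 UMIs per library.

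Within marker-rich members, genes of the thick limb were compared by whether Cldn10 was found. After thinning to 1000 UMIs, which left 821 marker-rich members, 215 had a UMI of Cldn10 and 606 had none. Background knowledge places Cldn10 mainly in the medullary and Cldn16 mainly in the cortical part of the limb, where Cldn10-rich and Cldn16-rich cells can lie side by side. Since members of a library are not replicates, shares are compared by their counts and by how many of 10 libraries showed the direction, with no test and with exact 95% Clopper-Pearson intervals that cover counting error only.

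Ptger3 was found in 26.5% (20.7 to 32.9) of members with Cldn10 and in 9.24% (7.06 to 11.8) of those without, higher in 10 of 10 libraries. Wnk4 was found in 24.2% and 12.7%, and Irx1 in 8.84% and 2.97%, each higher in 9 of 10 libraries. Wfdc15b (88.4% and 77.6%) was higher in 9 of 10 libraries, Fxyd2 (86.0% and 74.4%) and Kcnj1 (32.6% and 22.9%) in 8, and Cldn19 (18.6% and 12.9%), whose product pairs with claudin 16, in 7. All of these genes were more frequent beside Cldn10 in the pooled members.

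The opposite held for Pth1r, found in 7.44% (4.31 to 11.8) of members with Cldn10 and 21.5% (18.2 to 24.9) of those without, lower in 10 of 10 libraries. Kcnj16, a basolateral potassium channel subunit, was found in 13.5% and 19.8%, lower in 10 of 10, and its partner Kcnj10 in 0.930% and 5.94%, lower in 8 of 10. Wnk1 (26.5% and 39.3%) and Tmem207 (6.05% and 11.6%) were each lower in 8 of 10 libraries, and Cldn16 (7.91% and 11.9%) in 7. Cldn16 is also a rule gene, so its shares here and below are partly set by selection. Umod (99.1% and 97.4%), Slc12a1 (98.1% and 93.9%) and Egf (86.5% and 87.8%) are rule genes whose UMIs chose these members, so their shares are near the ceiling and are no contrast.

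Members with Cldn10 were deeper before thinning, with a median of 3288 against 2751 UMIs, and their median mitochondrial share was 40.4% against 42.0%. All of them were thinned to the same number of UMIs before the shares were taken. Cldn10 was itself found in 9.07% of thinned proximal tubule barcodes and 0.914% of B cells, against 26.2% of marker-rich members. Cldn10 and Cldn16 were found together in 17 members, 2.07% of 821, where 2.84% is the product of their separate shares. Ptger3 and Cldn10 were found together in 6.94%, where that product is 3.60%. Cldn19 was found above that product beside both claudin genes, in 4.87% with Cldn10 (product 3.76%) and 2.07% with Cldn16 (product 1.56%).

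**Figure D3:**
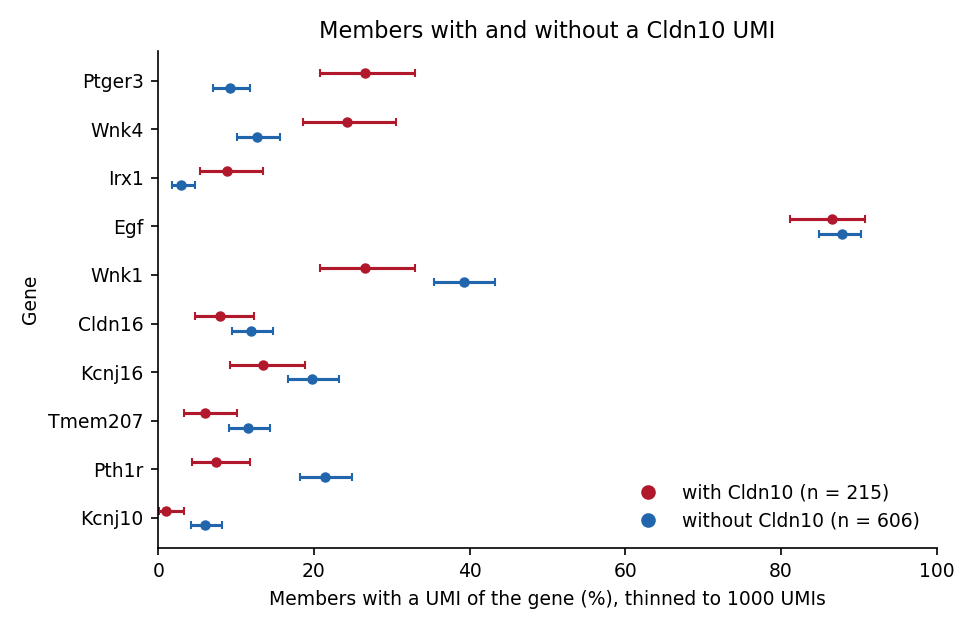
Share of thinned marker-rich members with a UMI of each gene (horizontal axis, %) among the 215 members with a Cldn10 UMI (red) and the 606 without (blue), with exact 95% intervals. Ptger3, Wnk4 and Irx1 lie higher with Cldn10, and Pth1r, Kcnj16 and Kcnj10 lie lower. Egf, a rule gene, is high in both by selection.

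The libraries also differ in Nalcn genotype. Nalcn itself was hardly seen in members, with 2 UMIs in het replicate 1, 1 each in null replicate 3, wt replicate 4 and unassigned 2, and 0 in the other 7 tissue libraries. A count of 0 allows up to 1.97 CPM in wt replicate 1 and 33.6 in wt replicate 5, so a difference between genotypes was not detectable at this depth and the transcript does not check the labels. Over whole libraries Nalcn was at most 0.599 CPM. Prom1, whose promoter drives the recombinase, was at 26.3, 21.5, 26.8, 0 and 22.4 CPM in members of wt replicates 1 to 5, 0 and 60.9 in the het pair and 7.77 and 15.5 in null, and at 0 in both unassigned libraries. The 0 of wt replicate 4 allows up to 12.1 CPM and that of het replicate 1 up to 3.58. The genotypes overlapped.

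Members made up 6.11%, 2.60%, 9.56%, 5.18% and 15.8% of kidney tubule barcodes in wt replicates 1 to 5, 5.40% and 3.76% in het, and 4.27% and 3.75% in null. Kidney tubule barcodes were the members plus the 3 comparison classes, and wt replicate 5 had only 139 of them, giving an exact interval from 10.2% to 23.0%. The classes held no UMI of Umod or Slc12a1 by definition. A tubule barcode that captured free RNA of either gene thus left its class, and with a second rule marker could become a member. The share therefore depends on the rule's own genes, and the part of free RNA in it was not tested. The groups overlapped. The mean share was 3.84 percentage points lower in null (4.01% ± 0.366, SD, n = 2) than in wt (7.86% ± 5.10, SD, n = 5), with p = 0.429 in an exact two-sided permutation test, adjusted p = 0.524 over 3 comparisons. It was 3.28 points lower in het (4.58% ± 1.16, n = 2), with exact permutation p = 0.524, adjusted 0.524. The smallest p these designs allow is 0.0476. Without wt replicate 5 the differences were -1.85 and -1.28 points, with at least 3 rule markers -0.944 and -0.304, in marker-rich members -0.916 and -0.0911, and at no more than 25% mitochondrial UMIs -6.83 and -6.24. At that last limit wt replicate 5 kept 4 members among 14 barcodes (28.6%), against 1.75% to 5.33% in the other wt libraries. With all passing barcodes as the denominator, the differences were -0.149 (1.26% in null and 1.40% in wt, exact permutation p = 0.857) and -0.360 points. Females (8.26% ± 6.60, n = 3) were 2.97 points above males (5.28% ± 2.43, n = 6), exact permutation p = 0.381, adjusted 0.524, where the smallest possible p is 0.0119, and the difference turned to -0.814 points without wt replicate 5. At no more than 25% mitochondrial UMIs it was 8.27 points, with that library at 28.6% and the other female libraries at 4.11% and 2.16% against a male mean of 3.35%, and with all passing barcodes as the denominator it was 0.110 points.

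The share of marker-rich members rests on UMIs of the same 5 genes that the rule used, and is given as a description. Marker-rich members were 38.2%, 53.3%, 39.0%, 45.05% and 40.9% of members in wt replicates 1 to 5, 68.7% and 78.6% in het, 63.6% and 61.5% in null, and 86.4% and 71.6% in the unassigned libraries. The wt libraries did not overlap the het and null libraries. The unassigned libraries are placed in neither set, and the strain entry of unassigned 2 names no Nalcn allele. No test is given, because the limit was chosen after the values had been seen. Proximal tubule marker genes in all members summed to 9044, 3350, 987, 1161 and 1917 CPM in wt, 745 and 1464 in the het pair, and 1271 and 1651 in null, highest in wt replicates 1 and 2 and within the range of het and null in wt replicates 3 and 4. B cells with a UMI of Umod, not thinned, split the genotypes in the opposite direction, at 5.59%, 5.71%, 12.3%, 4.54% and 8.62% in wt replicates 1 to 5 against 3.48% and 2.79% in het and 1.49% and 2.83% in null, also without overlap. In unassigned 1 and 2 that share of B cells was 1.37% and 3.75%. Without thinning it also rises with depth. Median UMIs per B cell were 2098, 2268, 1465, 1342 and 3700.5 in wt replicates 1 to 5. They were 1641.5 and 1082 in het, and 842 and 1324 in null. The part of free RNA, of depth and of proximal tubule transcripts in these differences was not tested.

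**Figure D4:**
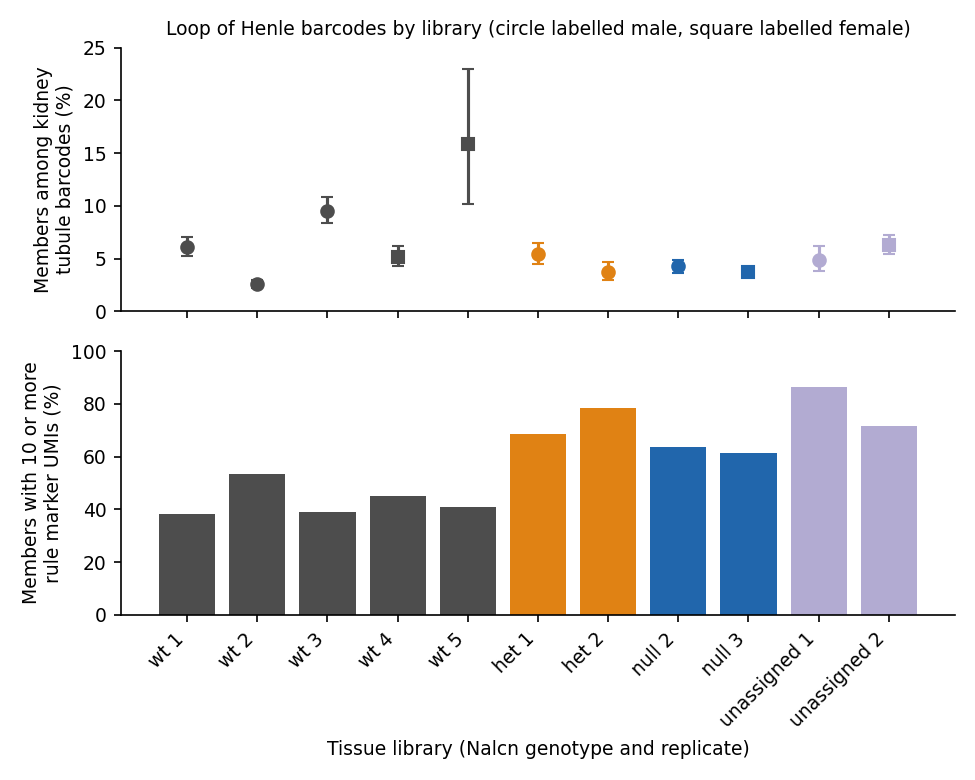
Upper panel, members as a percentage of kidney tubule barcodes in each tissue library with exact 95% intervals (circles labeled male, squares labeled female). Lower panel, percentage of members with 10 or more rule marker UMIs. Shares overlap between genotypes, with 15.8% in wt replicate 5, while the lower panel shows 38.2% to 53.3% in wt and 61.5% to 78.6% in het and null.

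The median mitochondrial share of members was 30.5%, 32.2%, 42.3%, 38.3% and 48.3% in wt replicates 1 to 5, 36.1% and 43.6% in het, and 35.1% and 40.4% in null. Null and wt differed by -0.554 points (exact two-sided permutation p = 1.0, adjusted 1.0), and het and wt by 1.52 points (exact permutation p = 0.857, adjusted 1.0). Females were 5.70 points above males (42.3% ± 5.24, n = 3, against 36.6% ± 5.30, n = 6; exact permutation p = 0.179, adjusted 0.536). That difference was 5.02 points with at least 3 rule markers, 2.80 without marked doublets and 0.558 in marker-rich members. It ran from 2.73 to 7.69 points with each library left out in turn, lowest without wt replicate 5. None of these passed the test. The rule itself cut members at 60% mitochondrial UMIs, with 332 members between 50% and 60% and 228 barcodes just outside, so these medians are of a truncated range and say nothing of barcodes above it.

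For gene tests, UMIs were summed over the members of each library and compared with edgeR's quasi-likelihood test, sex and genotype in 1 model, with Benjamini-Hochberg adjustment over 7543 genes. Between null and wt, 13 genes were called at an adjusted p under 0.05 (0.172% of genes tested), all higher in null, and 425 genes had an unadjusted p under 0.05. The 5 with the largest change were Defb47, Defb25, Defb48, 9230104L09Rik and Defb20. Defb47, Defb25, Defb48 and Defb20 encode beta-defensins, and the other 8 called genes, Cst11, Cst8, Cryba4, Lcn9, 9230110F15Rik, Spink12, Rnase10 and Defb42, include cystatins, a lipocalin and a ribonuclease family member known from the epididymis. None is a gene of the loop, transport, junction, receptor, energy, injury or fibrosis lists.

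Defb25 was at 1.32, 0, 0, 0 and 0 CPM in members of wt replicates 1 to 5, 7.17 and 5.54 in het, and 330 and 277 in null. Null lay above every other library, and the log2 change was 8.62 ± 0.51 (SE) with adjusted p = 6.46e-05 in edgeR's test. Defb47 was at 0.658 CPM in wt replicate 1 and 0 in the other 4 wt libraries, 16.7 and 0 in het, and 505 and 52.1 in null (log2 change 9.72 ± 0.78, edgeR adjusted p = 0.00065). These fitted changes rest on wt libraries at or near 0 and are no measure of size.

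Defb20 was at 9.21, 109, 3.83, 0 and 0 CPM in wt, 1043 and 1511 in the het pair and 3066 and 1309 in null (log2 change null against wt 7.01 ± 1.04, edgeR adjusted p = 0.0318). Defb48 (7.88 ± 0.62) and 9230104L09Rik (7.54 ± 1.13) had adjusted p = 0.00091 and 0.0318 by edgeR. Most of these genes also rose in B cell barcodes of these libraries. Defb20 was at 484 and 719 CPM in B cells of null and 0 to 21.3 in wt (log2 change 7.12 ± 0.97, edgeR adjusted p = 0.0139), and Defb25 at 37.9 and 121 in null and 0 to 8.13 in wt (log2 change 7.09 ± 1.08, edgeR adjusted p = 0.0294). Of the 13 genes called in members, 9 could be tested in B cells and 8 were called there, among 21 called of 8546 tested. In proximal tubule barcodes all 13 were tested and higher in null, but 0 of 14400 genes were called.

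The 7 epididymis markers summed to 14145 and 8765 CPM in members of null, 7579 and 8849 in het, and 327, 1272, 342, 0 and 0 in wt replicates 1 to 5. They were higher in marker-poor members, at 37895 and 22024 CPM in null against 3352 and 673 in marker-rich members. Among marker-rich members alone 2 genes were called, Cst12 and Defb20 (0.0385% of 5200 tested). Without null replicate 3, the female library with epididymal transcripts, 2 genes were called (Defb25 and Defb47). With barcodes holding at least 2 markers of any other cell type left out, edgeR called 0 of 1549 genes in the 7 libraries that kept 20 members. Of the genes tested, 58 had an unadjusted p under 0.05, and none of the 13 passed the filter on low counts. Epididymis markers were among those used to leave barcodes out, so this setting could not test the 13 genes.

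**Figure D5:**
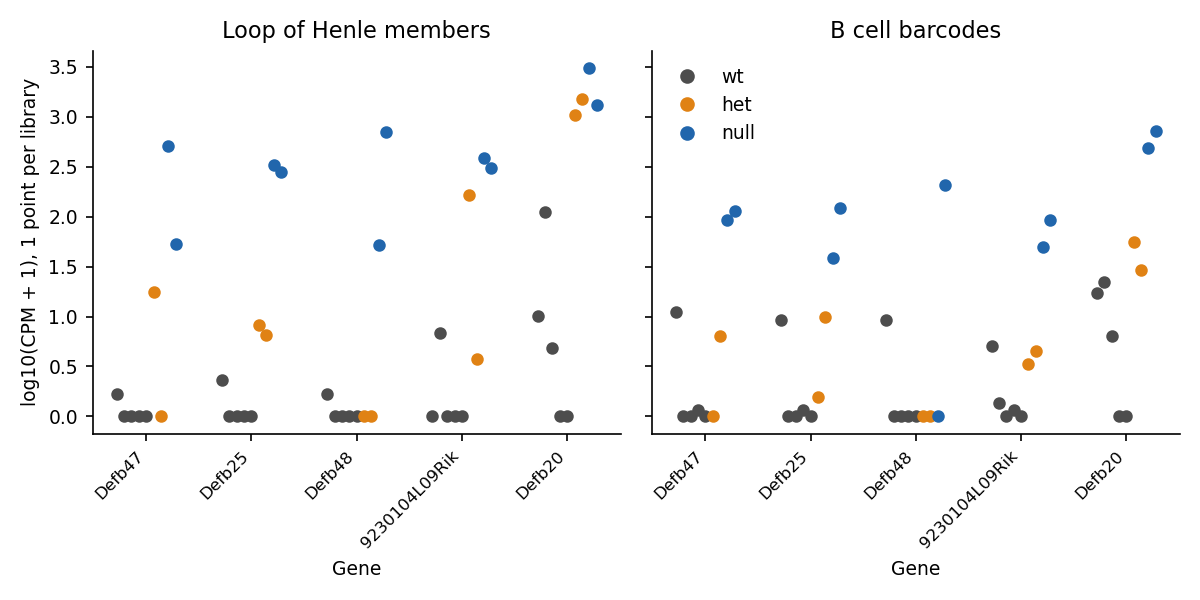
Level of the 5 genes with the largest change between null and wt, as log10(CPM + 1) with 1 point per library, in members (left) and in B cell barcodes of the same libraries (right). The null libraries lie above wt in both panels, except for Defb48 in B cells of null replicate 2, which was at 0.

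Between het and wt, 0 genes were called among all members (0% of 7543) and 0 among marker-rich members (0% of 5200) by edgeR, with 780 and 471 genes at an unadjusted p under 0.05. DESeq2 called 67 among all members. The 5 genes with the smallest p were Cryba4, Tagln, Acta2, Myh11 and Tpm2, none of them called. Acta2, a smooth muscle actin, was at 120, 100, 23.0, 162 and 146 CPM in wt replicates 1 to 5, 1.19 and 0 in het, and 11.7 and 5.63 in null (log2 change het against wt -6.46 ± 1.05, edgeR adjusted p = 0.191). Tagln, Myh11 and Tpm2, also contractile genes of smooth muscle, had log2 changes of -5.13, -5.15 and -3.17. In B cells Acta2 was at 1.73 and 76.4 CPM in the het pair and from 3.04 to 21.6 in wt, and Tagln at 2.31 and 35.5 in the het pair and from 0 to 14.2 in wt.

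The loop genes themselves pointed upward in het among all members without being called. Kcnj1 was at 126, 145, 132, 198 and 101 CPM in wt, 272 and 388 in the het pair and 190 and 208 in null, with log2 change het against wt 1.30 ± 0.34 (edgeR adjusted p = 0.358). Of the 16 salt transport genes, 16 were higher in het, with 0 called and a median log2 change of 0.75. In marker-rich members the median was 0.24 with 13 higher, and Kcnj1 changed by 0.58 ± 0.25 (edgeR adjusted p = 0.502). The same list in null against wt had a median of 0.44 among all members and 0.05 among marker-rich members, again with 0 called. Over all genes tested the median was -0.04 for het and under 0.01 in size for null. These medians were smaller in marker-rich members, and the marker-rich share itself was larger in the het pair and null. Proximal tubule markers had medians of -2.18 in het (10 of 10 lower) and -0.81 in null (9 of 10 lower) among all members. In marker-rich members these were -0.76 (6 of 8 lower) and 0.39 (3 of 8 lower). The part of the marker-rich share and of proximal tubule transcripts was not tested.

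Apart from the epididymis markers, of which 3 of 7 were called in null among all members and 2 of 6 tested among marker-rich members by edgeR, the lists gave 0 called genes in each genotype comparison. Energy genes had a median log2 change of 0.45 in null (25 of 26 higher) and 0.49 in het, and 0.15 and 0.33 in marker-rich members. Fibrosis signal genes had a median of -0.46 in null and -1.11 in het over 14 tested genes, and of -0.19 and -1.72 over the 6 tested among marker-rich members. Endothelial markers lay lower beside them, in 4 of 4 genes each time and with 0 called, with medians of -1.15 in null and -0.93 in het, and -0.62 and -3.30 in marker-rich members. Leukocyte markers had medians of 0.26 in null and -2.23 in het, and 0.15 and -1.66 in marker-rich members. The invasion and epithelial-mesenchymal transition genes that the study named for gastric cells had 6 of 10 tested and a median of -1.19 in null and -1.10 in het, and -0.84 and -0.81 over the 4 tested among marker-rich members. The part of the endothelial and leukocyte transcripts in both lists was not tested. Of the invasion and transition genes, Timp3, a protease inhibitor, was at 1741, 846, 467, 809 and 1301 CPM in wt, 358 and 299 in the het pair and 350 and 394 in null (log2 change null against wt -1.47 ± 0.51, edgeR adjusted p = 0.791). In marker-rich members its change was -0.84 ± 0.37 (edgeR unadjusted p = 0.0415, adjusted p = 0.99977). Timp3 was at 1299 CPM in proximal tubule and 341 in marker-rich members, and marker-poor members were a larger share in wt, whose part was not tested. Clu, a secreted chaperone, had a log2 change of 3.39 ± 0.63 in null (edgeR adjusted p = 0.101) and was at 62.5, 178, 369, 89.0 and 22.4 CPM in wt, 677 and 1378 in the het pair and 1749 and 849 in null, but at 1210 and 52.1 in marker-rich members of null. The summed epididymis markers were also higher in members of the het pair and null, and the part of epididymal transcripts in Clu was not tested.

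Between females and males, 1 gene was called (0.0133% of 7543), Xist, the noncoding RNA of the inactive X chromosome, with a log2 change of 11.44 ± 0.73 (edgeR adjusted p = 0.00043). Xist was at 1861, 1592 and 1289 CPM in the female libraries wt replicates 4 and 5 and null replicate 3, and at 0 in the male libraries apart from 3.89 in null replicate 2. In all, 367 genes had an unadjusted p under 0.05, and Xist was still the 1 gene called without null replicate 3. Tsix, Kdm5d, Ddx3y and Igha followed by p without being called. In marker-rich members 3 genes were called (0.0577% of 5200), Xist, Ddx3y and Gsn, the last of which encodes gelsolin and was named after its value had been seen. Energy genes were lower in females in 26 of 26 cases, with 0 called and a median log2 change of -0.56 against -0.09 for all genes, and in marker-rich members in 18 of 26 with a median of -0.12. Among all members, proximal tubule markers had a median of -1.02 (9 of 10 lower in females), hepatocyte markers -0.86 (4 of 4 lower) and endothelial markers 1.07 (4 of 4 higher), with 0 called, and all 7 epithelial identity genes were lower. Their part was not tested.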

How the data were processed

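The authors dissociated organs, marked them with hashtag antibodies, pooled them and made 10x Chromium 3′ version 3 libraries. Reads were aligned to mm10, by Cell Ranger (the matrix headers name version 3.0.2, the submitters' processing notes 2.1.1), and the deposited values are raw UMI counts for each gene in each barcode. The hashtag counts were left aside, and organs of origin are therefore unassigned. Some genes of the lists are not reported here. Blood libraries and the 2 unassigned libraries entered no test. Members and gene lists were chosen with earlier results of these data known. UMIs were summed per library over members where a library held at least 20, and tested with edgeR 4.0.16 (TMM, filterByExpr, genotype and sex in 1 model, Benjamini-Hochberg at 0.05). DESeq2 1.42.0 was an alternative, as were other filters, RLE size factors, no sex term, a replicate block, barcodes with other cell types' markers or marked as doublets left out, and leaving out each library. The limit of 10 marker UMIs was chosen after seeing the data. For shares and mitochondrial percentages, libraries were permuted exactly, two-sided. Doublets were scored with Scrublet in scanpy 1.11.5 at an expected 0.8% per 1000 barcodes, at most 25%, and that share of top scores was marked. For shares of barcodes with a gene, barcodes were thinned to 1000 UMIs (seed 0), leaving out shallower ones: 1306 of 1588 members, 821 of 909 marker-rich and 485 of 679 marker-poor members entered, and at most 3000 barcodes per class and library. B cells had at least 2 of Cd79a, Cd79b and Ms4a1 and no Cd3e, Slc34a1, Lrp2 or Epcam. Intervals are exact at 95%, limits for 0 use 3 counts, and both cover counting error only. Named genes were those of the lists, per test the 5 called genes with the largest change in each direction (with under 3 called, the 5 with the smallest p), and the 20 genes with the largest ratio to the highest other tubule class. On simulated counts for null against wt over 7543 genes, the test found 38 of 100 genes changed 4-fold and 81 of 100 changed 16-fold, with 6 false calls.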

Additional observations from a re-analysis of the deposited data

Results flagged for a closer look

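Among 30 sets of 5 wt values checked for a library far from the other 4, 7 stood out. A chance rate of about 1 in 20 does not apply to them. A set with 4 values at 0 is flagged by any value above 0, and most of these genes were picked from the same data. Prom1 in members was at 0 CPM in wt replicate 4 and from 21.5 to 26.8 CPM in the others. Defb47, Defb25 and Defb48 were at 0.658, 1.32 and 0.658 CPM in wt replicate 1 and at 0 in the others. 9230104L09Rik was at 5.85 CPM, Defb20 at 109 CPM and Cryba4 at 6.83 CPM in wt replicate 2, above the other wt libraries. The last 6 are genes that were higher in null or had the smallest p in het. Except for Defb20, they stood in groups mostly at 0, so that 1 or a few UMIs set a value apart. Defb20 was at 9.21 and 3.83 CPM in wt replicates 1 and 3 and at 0 in wt replicates 4 and 5. Their part in the comparisons was not tested beyond leaving out each library.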

How the results depend on the processing

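Counts of called genes moved with most settings. Null against wt gave 13 genes as reported, 31 with DESeq2, 152 without a filter on low counts, 22 without sex, 3 at 3 or more rule markers, 2 in marker-rich members (1 with at least 9 such members per library), 0 without barcodes holding 2 markers of another type (7 libraries kept enough members, and none of the 13 genes passed the count filter), and 2 to 26 without each library in turn (5 without null replicate 2, 2 without null replicate 3, 26 and 21 without wt replicates 1 and 3, 7 without wt replicate 4 or 5). Het against wt gave 0, and 67 with DESeq2, 459 without a filter, 2 without sex, 14 at 25% mitochondrial UMIs, 12 without barcodes of other markers, and 0 to 37 without each library (37, 7 and 3 without wt replicates 1, 2 and 3, and 1 without het replicate 2). Female against male gave 1, and 4 with DESeq2, 98 without a filter, 3 at 3 or more markers, 3 in marker-rich members (2 with at least 9 per library), 4 at 25% mitochondrial UMIs, 1 in wt alone (Xist), and 1 to 2 without each library (2 without wt replicate 1). With a replicate block 0, 0 and 0 genes were called. That model had nearly as many terms as libraries, and not even Xist was called, so it could hardly call any gene. Deviations of same-numbered libraries from their group means had correlations from -0.27 to 0.07. With 2 libraries each in het and null, the deviations within a group mirror each other. These correlations therefore cannot decide whether the numbers pair the samples. Without each library the null-wt share difference ran from -5.16 to -1.85 points, the het-wt one from -4.59 to -1.28, the female-male one from -0.814 to 5.22, the null-wt mitochondrial difference from -3.17 to 2.06 and the het-wt one from -2.23 to 5.27, changing sign without wt replicate 5 (share), null replicate 2, wt replicate 3 or wt replicate 5 (2.06, 0.444 and 1.93) and wt replicate 1, wt replicate 2 or het replicate 2 (-0.432, -0.019 and -2.23), and none of these passed a test. Genes 2-fold above all classes numbered 33, and 63 in marker-rich members, and Cldn19 was found in 8.35% of thinned members and 14.4% of marker-rich ones. The cause of these moves was not tested.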
